A study of Mus musculus with 12 samples.

Results

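The 9 genes described here are the nuclear factor I genes Nfia, Nfib, Nfic and Nfix, the inhibitor of DNA binding genes Id1, Id2, Id3 and Id4, and the zinc-finger gene Zbtb20. They were taken by symbol from the 53465 genes in each count file, and all 9 were found and passed the filter on low counts. RNA sequencing was done on 3 fractions of cells sorted by flow cytometry from the brachial and thoracic spinal cord of mice at postnatal day 7. All mice were C57BL/6 and carried the Aldh1L1-GFP and Olig2-tdTomato reporters, so no fraction comes from cord without them. The fractions are named for the reporters that the cells carried, eGFP alone, tdTomato alone, or both (eGFP/tdTomato), with 4 libraries each, numbered 1, 2, 3 and 5. The labels call these biological replicates but do not say how many animals each holds or what libraries of 1 number share. The 2 reporters mark promoter activity of Aldh1l1, an astrocyte enzyme gene, and of Olig2, an oligodendrocyte lineage gene that some astrocytes also use.

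Gene counts per library ran from 12564767 to 36505583, and eGFP replicate 1 had both the fewest counts and the largest share of reads outside annotated genes (57.1%, against 21.2 to 42.5% in the other libraries). The sort left its mark on the endogenous reporter genes. Aldh1l1 was at 406 ± 207 CPM (read counts relative to library size, after scaling by trimmed mean of M values, TMM) in eGFP, 722 ± 170 in eGFP/tdTomato and 3.69 ± 1.83 in tdTomato (mean ± SD, n = 4). For Olig2 the levels were 5.76 ± 3.06 CPM in eGFP, 74.4 ± 30 in eGFP/tdTomato and 258 ± 80.1 in tdTomato. The summed level of 12 astrocyte markers was 34566 to 50945 CPM in eGFP, 46415 to 54710 in eGFP/tdTomato and 503 to 664 in tdTomato. In the same order, 10 myelin markers summed to 397 to 1279, 1530 to 3199 and 111024 to 164303 CPM. The sums of 8 oligodendrocyte progenitor markers were 434 to 829, 727 to 1362 and 2750 to 4542 CPM. Other cells were measurable in the eGFP libraries: 8 ependymal markers summed to 218 to 471 CPM there and to 11.8 to 21.6 in eGFP/tdTomato, 8 mural and fibroblast markers to 794 to 2099 and 368 to 581, and 10 microglial and macrophage markers to 89.2 to 1044 and 33.0 to 44.9. Summed neuronal markers stayed at or below 97.4 CPM in every library, and no marker gene of any list was at 0 in all libraries of a fraction.

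NFI proteins bind DNA as dimers at a palindrome whose arms read TTGGC, and in the embryonic cord Nfia and Nfib switch progenitors from making neurons to making glia. NFIA acts together with SOX9 on early astrocyte genes. ID proteins carry a helix-loop-helix but no basic region, so they hold the E proteins Tcf3, Tcf4 and Tcf12 in dimers that cannot bind DNA and thereby block proneural and OLIG factors; their genes are classical targets of bone morphogenetic protein (BMP) signalling through SMAD proteins. Zbtb20 is a transcriptional repressor with a BTB domain that promotes astrocyte formation in the neocortex.

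Sequence before the RefSeq start is shown for the 3 ID genes in the table of windows. The windows are the 250 bases before the RefSeq start (GRCm38.p6), searched on both strands for the NFI arm TTGGC and for GGCGCC, a GC box of BMP-responsive promoters that reads the same on both strands. The table of windows covered 7 of the 9 genes, without Id1 and Nfib. The NFI arm was present in 41.5% of all 32851 windows and the GC box in 9.6%, and the 2 motifs share no full site. Id4 had 2 NFI arms and 1 GC box, Id2 had 1 of each, and Id3 had 1 arm and no GC box. Nfia, Nfic and Zbtb20 had neither motif, and of the 4 windows of Nfix 2 held an arm and 1 a GC box. The window of Id4 lies at chr13:48260866-48261115 on the plus strand and is given whole, with NFI arms and the GC box in capitals.
Id4: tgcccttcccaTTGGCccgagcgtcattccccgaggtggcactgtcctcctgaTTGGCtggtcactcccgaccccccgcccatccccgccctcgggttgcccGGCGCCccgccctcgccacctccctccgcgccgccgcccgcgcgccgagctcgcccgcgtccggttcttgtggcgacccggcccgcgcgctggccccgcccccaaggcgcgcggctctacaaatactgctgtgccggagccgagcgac
The arms of Id2 (chr12:25096233-25096262, minus strand) and Id3 (chr4:136143736-136143765, plus strand) are given with 30 bases of context, the arm in capitals; both lie before the RefSeq start but inside the GENCODE gene spans given below.
Id2: accctacaggcaTTGGCtgcgaacgcggaa
Id3: gggggtggacccTTGGCggtctgttttgaa
These matches are descriptions of letters; no binding was measured in these libraries, and an arm that 41.5% of windows hold is common.

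The 4 NFI genes were expressed in all 12 libraries and were 2.42-fold to 6.48-fold higher in both eGFP-carrying fractions than in tdTomato cells. Nfia (ENSMUSG00000028565, chr4:97772734-98118874, GRCm38), the NFI gene tied most closely to the onset of gliogenesis, was at 1036, 1087, 790 and 758 CPM in eGFP replicates 1, 2, 3 and 5, at 984, 881, 832 and 741 in eGFP/tdTomato, and at 157, 212, 119 and 79.7 in tdTomato. Every eGFP-carrying library lay above every tdTomato library, and the eGFP and eGFP/tdTomato ranges overlapped. Nfia was 2.60 ± 0.27 higher on the log2 scale (log2 fold change ± SE) in eGFP/tdTomato than in tdTomato (adjusted p = 1.6e-06) and 2.69 ± 0.27 higher in eGFP than in tdTomato (1.02e-06), by edgeR's quasi-likelihood test with Benjamini-Hochberg adjustment over 29361 genes. At this threshold, an adjusted p under 0.05, 16.8% of all genes tested were higher in eGFP/tdTomato than in tdTomato and 20.4% were higher in eGFP than in tdTomato; in either direction, 29.2% and 35.2% were called. In such bulk libraries, fewer expressing cells and less RNA per cell cannot be told apart.

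Nfib (ENSMUSG00000008575, chr4:82290173-82705750), which works beside Nfia in the glial switch, was at 472, 723, 571 and 584 CPM in the eGFP libraries, 842, 681, 609 and 511 in eGFP/tdTomato, and 158, 251, 131 and 94.9 in tdTomato. It was the NFI gene with the highest mean CPM in tdTomato cells (159 ± 66.8, against 142 ± 56.3 for Nfia), where replicate 2 was highest and replicate 5 lowest, and again no tdTomato library reached the others. The difference was 2.06 ± 0.27 for eGFP/tdTomato (adjusted p = 2.42e-05) and 1.89 ± 0.27 for eGFP (5e-05) against tdTomato. Nfix (ENSMUSG00000001911, chr8:84699876-84800344), a later-acting member of the family, was at 124, 124, 170 and 135 CPM in eGFP, 140, 150, 176 and 176 in eGFP/tdTomato, and 44.4, 45.7, 38.0 and 28.2 in tdTomato. It was 4.10-fold higher in eGFP/tdTomato (2.04 ± 0.19, adjusted p = 6.03e-07) and 3.54-fold higher in eGFP (1.82 ± 0.19, 1.7e-06) than in tdTomato, with no overlap.

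Nfic (ENSMUSG00000055053, chr10:81396186-81455635), a broadly expressed family member best known from tooth root formation, showed the smallest fold of the 9 in both comparisons. Its levels were 62.8, 63.9, 140 and 73.0 CPM in eGFP, 64.7, 73.4, 113 and 88.4 in eGFP/tdTomato, and 40.8, 28.0, 43.5 and 27.8 in tdTomato. The libraries numbered 3 were highest in each fraction, and eGFP replicate 3 stood far above the other 3 of its group. Nfic was 2.42-fold higher in eGFP/tdTomato (1.28 ± 0.28, adjusted p = 0.00221) and 2.43-fold higher in eGFP (1.28 ± 0.28, 0.00188) than in tdTomato, with no overlap. Without eGFP/tdTomato replicate 3 the first difference was 0.82 (adjusted p = 0.0373), and without the 3 libraries numbered 3 the second was 0.75 (0.0262).

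**Figure D1:**
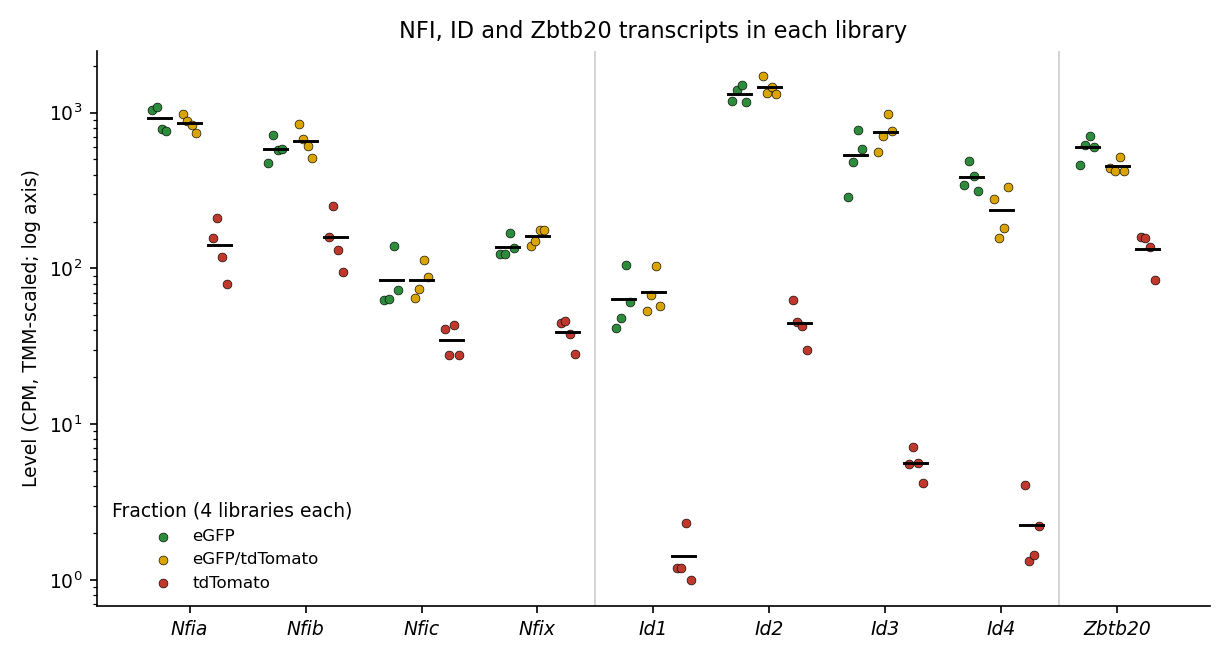
Level of each gene in each library (TMM-scaled CPM, log axis), with 4 points per fraction in the order of replicates 1, 2, 3 and 5 and a bar at the mean; grey lines separate the NFI genes, the ID genes and Zbtb20. The tdTomato points lie below all others for every gene, by far the most for the ID genes, where Id3 falls from 751 to 5.65 CPM.

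The ID genes separated the fractions far more widely, with 29.3-fold to 171-fold higher means in the eGFP-carrying fractions than in tdTomato. Id1 (ENSMUSG00000042745, chr2:152736251-152737410), a rapid BMP target, was at 41.2, 47.8, 105 and 61.0 CPM in eGFP, 53.4, 67.7, 103 and 57.7 in eGFP/tdTomato, and 1.20, 1.20, 2.31 and 0.996 in tdTomato. Its highest library carried the number 3 in all 3 fractions. It was 5.62 ± 0.39 higher on the log2 scale in eGFP/tdTomato (49.3-fold, adjusted p = 2.33e-08) and 5.48 ± 0.39 higher in eGFP (44.6-fold, 2.62e-08) than in tdTomato.

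Id2 (ENSMUSG00000020644, chr12:25093799-25097140), the member that also binds proteins of the retinoblastoma family, was the most abundant of the 9 genes at 1189, 1400, 1513 and 1161 CPM in eGFP and 1717, 1331, 1455 and 1320 in eGFP/tdTomato. It was also the ID gene with the most transcript in tdTomato cells, at 62.3, 45.0, 42.5 and 29.8 CPM. The 4 tdTomato values lay below all others, and the fold was 32.4 for eGFP/tdTomato (5.02 ± 0.25, adjusted p = 1.06e-09) and 29.3 for eGFP (4.87 ± 0.25, 1.06e-09). Id3 (ENSMUSG00000007872, chr4:136143497-136145755), a near relative of Id1 with overlapping roles, was at 287, 481, 774 and 586 CPM in eGFP, 558, 703, 977 and 766 in eGFP/tdTomato, and 5.57, 7.19, 5.62 and 4.21 in tdTomato. Its difference of 7.05 ± 0.35 between eGFP/tdTomato and tdTomato (133-fold, adjusted p = 1.13e-09) was the largest of the 9 in that comparison, and it was 6.55 ± 0.35 higher in eGFP than in tdTomato (94.0-fold, 1.53e-09).

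Id4 (ENSMUSG00000021379, chr13:48261228-48266026), which in cultured precursors restrains oligodendrocyte differentiation, was at 345, 489, 392 and 315 CPM in eGFP, 280, 156, 182 and 335 in eGFP/tdTomato, and 4.10, 1.32, 1.45 and 2.21 in tdTomato. Of the 9 genes, Id4 had the largest fitted log2 difference between eGFP and eGFP/tdTomato in either direction, a difference that was not called and is described below. Against tdTomato it was 6.73 ± 0.41 higher in eGFP/tdTomato (106-fold, adjusted p = 6.09e-09) and 7.42 ± 0.42 higher in eGFP (171-fold, 2.92e-09), the largest difference of the 9 between the single-reporter fractions.

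Zbtb20 (ENSMUSG00000022708, chr16:42875881-43642602) was at 461, 620, 711 and 597 CPM in eGFP, 444, 424, 516 and 421 in eGFP/tdTomato, and 160, 156, 137 and 84.0 in tdTomato. All tdTomato libraries lay below the others, with replicate 5 lowest. The gene was 3.36-fold higher in eGFP/tdTomato (1.75 ± 0.21, adjusted p = 1.08e-05) and 4.45-fold higher in eGFP (2.15 ± 0.22, 1.22e-06) than in tdTomato, which put it among the NFI genes and not among the ID genes in size.

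In all, 9 of 9 genes were higher in eGFP/tdTomato than in tdTomato, against the 16.8% of all genes that were. Likewise, 9 of 9 were higher in eGFP than in tdTomato, against 20.4%. No range of the 9 overlapped in either, but the share of all genes without overlap was not counted, so this is only a description. Markers of other cells were also higher in eGFP than in tdTomato: 8 of 8 ependymal genes (summed level 1.71 to 4.24 CPM in tdTomato), 7 of 8 mural and fibroblast genes (52.9 to 89.7), 7 of 10 microglial and macrophage genes (21.8 to 45.3) and 6 of 8 endothelial genes (6.40 to 13.8 in tdTomato and 24.3 to 42.9 in eGFP). In eGFP/tdTomato against tdTomato the counts were 7 of 8, 6 of 8, 1 of 10 and 1 of 8 in the same order, and the part of these cells in the levels of the 9 genes was not tested. The median difference of the 9 was 2.60 in the first comparison, where the median over all 29361 genes was 0.70, and 2.69 in the second, where it was 0.79. The NFI median was 2.05 and the ID median 6.18 in the first, and 1.85 and 6.02 in the second. Both comparisons use the same 4 tdTomato libraries. The median over all genes moved with the scaling and the gene set, from 0.70 to 0.57 with DESeq2's size factors and to 0.24 with protein-coding genes only in the first comparison; Nfic, the nearest of the 9 to it, stood 0.57 above it.

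**Figure D2:**
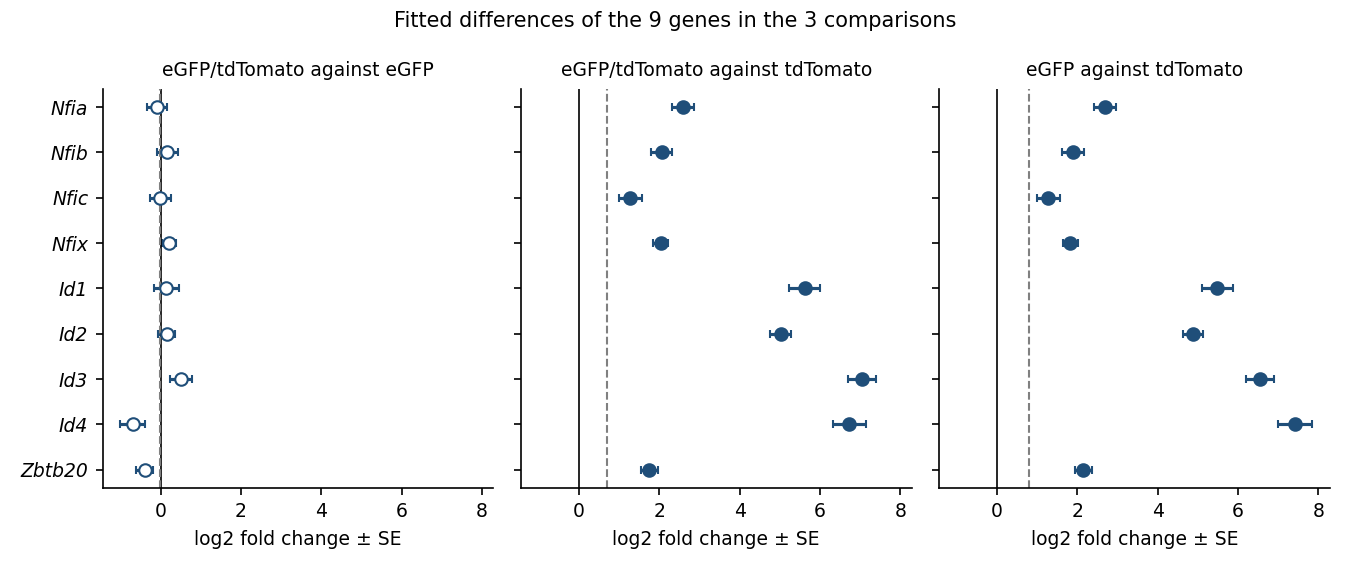
Fitted log2 fold change ± SE of the 9 genes in the 3 comparisons, filled where the adjusted p was under 0.05; the solid line marks 0 and the dashed line the median over all genes tested. No gene is filled in the left panel, where the values run from -0.69 (Id4) to 0.50 (Id3), and all 9 are filled in the others.

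The 2 eGFP-carrying fractions differ in whether the sorted cells also carried the Olig2 reporter, and the eGFP libraries held transcripts of other cells besides astrocytes. Between these fractions none of the 9 genes was called by edgeR, and none by DESeq2 or limma-voom. Over all genes, 2.49% were called in this comparison (0.814% higher and 1.67% lower in eGFP/tdTomato), and 2921 genes had an unadjusted p under 0.05, of which 1 was among the 9. That gene was Id4, with a mean of 238 ± 83.4 CPM in eGFP/tdTomato and 385 ± 76.0 in eGFP (n = 4 each). Its difference was -0.69 ± 0.31 (1.62-fold lower in eGFP/tdTomato, unadjusted p = 0.0431, adjusted p = 0.465 by edgeR), with 3 of 4 eGFP/tdTomato libraries below the lowest eGFP library and eGFP/tdTomato replicate 5 above it. The adjusted p of Id4 ran from 0.113 to 0.997 over the alternatives. Zbtb20 stood at -0.40 ± 0.21 (edgeR adjusted p = 0.602), also with 3 of 4 libraries below the eGFP range, and Id3 at 0.50 ± 0.27 (0.645).

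The remaining 6 differences lay between -0.09 (Nfia) and 0.21 (Nfix), and the ranges of the 2 fractions overlapped for all 9 genes. In simulated counts with the same libraries, the fit recovered 9.0% of 67 genes changed 2-fold and 73.1% of 67 changed 4-fold in this comparison. The changed genes were few and were drawn at random from genes of a wide range of levels. These rates are therefore not those of the 9 genes, whose SE ran from 0.18 (Nfix) to 0.31 (Id1 and Id4). How large a difference in the 9 would be called was not tested. Ependymal, mural and fibroblast, and microglial marker sums were higher in the eGFP libraries, at the values above, with 8 of 8, 4 of 8 and 6 of 10 of their genes lower in eGFP/tdTomato; their part in the Id4 and Zbtb20 values was not tested. Of the 12 astrocyte markers, 1 was higher in eGFP/tdTomato and none lower, and 7 of 10 myelin markers were higher. Of the 8 oligodendrocyte progenitor markers, 3 were higher in eGFP/tdTomato and none lower.

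Levels of different genes were compared per kilobase of annotated exon. In eGFP the order was Id2 (540 ± 69.6 CPM per kb), Id3 (297 ± 114), Id4 (100.1 ± 19.7), Nfia (84.3 ± 15.4), Id1 (55.0 ± 24.8), Nfib (39.3 ± 6.91), Zbtb20 (19.4 ± 3.37), Nfix (18.8 ± 2.96) and Nfic (12.8 ± 5.59). The library ranges separated Id2 from Id3, Id3 from Id4 and Nfib from Zbtb20, and the other neighbours overlapped. In eGFP/tdTomato the order was Id2 (597 ± 75.8), Id3 (419 ± 97.1), Nfia (78.9 ± 9.32), Id4 (61.9 ± 21.7), Id1 (60.8 ± 19.6), Nfib (44.2 ± 9.31), Nfix (21.8 ± 2.53), Zbtb20 (14.7 ± 1.44) and Nfic (12.8 ± 3.16). There Id3 was separate from Nfia, Nfib from Nfix and Nfix from Zbtb20, while Id2 and Id3 overlapped.

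In tdTomato cells the order turned over. Id2 was still first at 18.4 ± 5.48 CPM per kb but overlapped Nfia (13.0 ± 5.17), which overlapped Nfib (10.6 ± 4.47). Nfix (5.32 ± 1.09), Nfic (5.28 ± 1.26), Zbtb20 (4.37 ± 1.14) and Id3 (3.15 ± 0.681) followed, each overlapping the next, and Id1 (1.23 ± 0.512) and Id4 (0.59 ± 0.332) were last. With the longest annotated transcript as the length, Nfib (17.4 CPM per kb) stood above Nfia (14.9) in tdTomato.

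The balance between the families also differed between the fractions. Summed per kilobase, the ID genes were at 992 ± 196 in eGFP, 1139 ± 102 in eGFP/tdTomato and 23.4 ± 6.03 in tdTomato, and the NFI genes at 155 ± 15.0, 158 ± 14.7 and 34.2 ± 10.5 CPM per kb. The ratio of the ID sum to the NFI sum was 5.05 to 8.04 in eGFP, 6.47 to 8.09 in eGFP/tdTomato and 0.512 to 0.827 in tdTomato. ID transcripts outnumbered NFI transcripts per kilobase in all 8 eGFP-carrying libraries and in none of the 4 tdTomato libraries.

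Within the NFI family, Nfia made up 54.1 ± 6.85% of the sum in eGFP, 50.0 ± 1.65% in eGFP/tdTomato and 37.2 ± 3.67% in tdTomato, with no overlap of tdTomato with the others. The share of Nfic was 8.33 ± 3.69%, 8.22 ± 2.35% and 16.5 ± 5.27%, and its ranges overlapped. Within the ID family, Id2 made up 55.1 ± 6.14%, 52.6 ± 6.79% and 78.2 ± 3.28%, and Id3 made up 29.2 ± 6.87%, 36.7 ± 6.48% and 13.8 ± 2.80%. Both shares set tdTomato apart without overlap. The share of Id4 was 8.18 to 12.6% in eGFP and 3.71 to 7.86% in eGFP/tdTomato, ranges that did not overlap, and 1.44 to 3.59% in tdTomato. The gap between the eGFP-carrying fractions was narrow (lowest 8.18% in eGFP, highest 7.86% in eGFP/tdTomato), and the ranges of the Id4 level overlapped. For the other genes of both families, the share ranges of these 2 fractions overlapped. The shares were not tested, and the Id4 share also depends on the levels of Id2 and Id3.

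**Figure D3:**
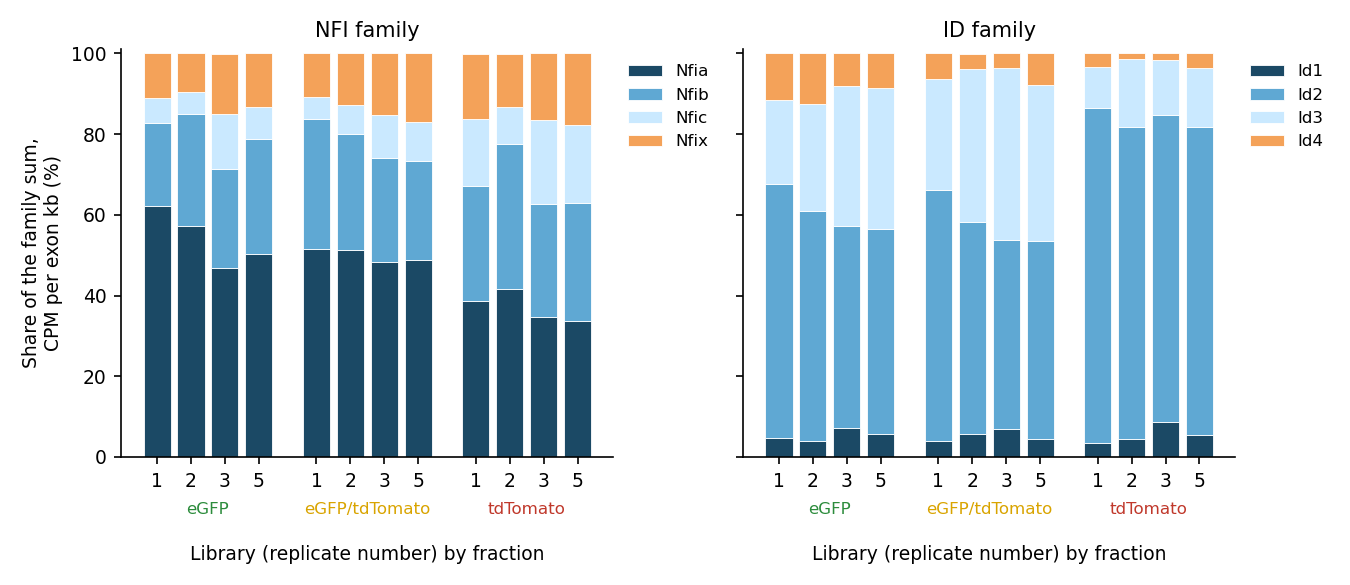
Share of each gene in the per-kilobase sum of its family (%, stacked to 100) in each of the 12 libraries, numbered by replicate within fraction. Id2 fills 76.0 to 83.1% of the ID sum in the tdTomato libraries and 46.7 to 63.1% in the others.

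How much transcript was left in tdTomato cells was set beside astrocyte markers measured the same way. As a percentage of the eGFP/tdTomato mean, tdTomato libraries held 16.5 ± 6.55% of Nfia, 24 ± 10.1% of Nfib, 41.3 ± 9.84% of Nfic, 24.4 ± 5.00% of Nfix and 29.7 ± 7.76% of Zbtb20. They held 2.02 ± 0.842% of Id1, 3.09 ± 0.918% of Id2, 0.752 ± 0.163% of Id3 and 0.954 ± 0.537% of Id4. The 12 astrocyte markers ranged from 0.144% (Gja1, the connexin of astrocyte gap junctions) to 115% (S100b, a calcium-binding protein that oligodendrocytes also make), with a median of 0.857%. Apart from S100b, the highest marker was Sox9 at 1.79 ± 0.617%. The means of the 4 NFI genes, Zbtb20, Id1 and Id2 were above those of 11 of the 12 markers, and Id3 and Id4 lay within the range of these 11. As a percentage of the eGFP mean, Fgfr3, a growth factor receptor gene, was the highest marker after S100b at 2.96%, above Id1 (2.24%), Id3 (1.06%) and Id4 (0.59%) and below Id2 (3.41%), while the NFI genes and Zbtb20 stood at 15.4 to 41.2%.

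**Figure D4:**
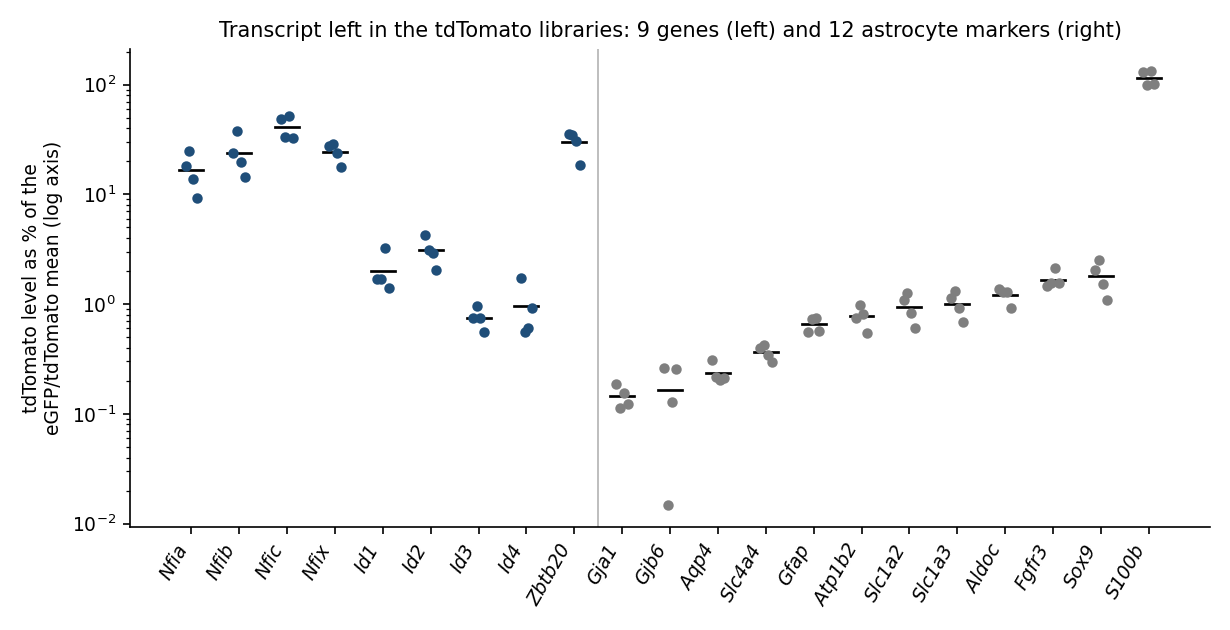
Level in each of the 4 tdTomato libraries as a percentage of the eGFP/tdTomato mean (log axis) for the 9 genes on the left and 12 astrocyte markers on the right; bars are means. The NFI genes and Zbtb20 sit between 9.27 and 51.4%, and all markers but S100b stay at or below 2.51%.

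The E proteins, the dimer partners that ID proteins sequester, did not follow the ID genes. Tcf3 was at 32.4 ± 9.18 CPM in eGFP, 42.8 ± 14.4 in eGFP/tdTomato and 31.6 ± 5.33 in tdTomato, and was called in no comparison. Tcf4 was at 308 ± 56.0, 385 ± 32.9 and 402 ± 77.2 CPM, also without a call in the main fit. Its difference between eGFP and tdTomato (-0.38, adjusted p = 0.124 by edgeR) was called by DESeq2 (-0.45, 0.0278). It was also called by edgeR with upper-quartile factors (-0.42, 0.016), at least 1 CPM in 4 libraries (-0.47, 0.021) or protein-coding genes only (-0.53, 0.0189). The same held without eGFP/tdTomato replicate 3 (0.0393), tdTomato replicate 5 (0.0381) or the libraries numbered 3 (0.0458). Tcf12 was at 199 ± 35.1, 224 ± 26.8 and 340 ± 70.1 CPM. It was lower in eGFP than in tdTomato (-0.78 ± 0.20, edgeR adjusted p = 0.00577), with no overlap. Against eGFP/tdTomato the edgeR call (-0.60 ± 0.20, adjusted p = 0.0302) was lost when 1 library was left out, namely tdTomato replicate 1 (0.109), 2 (0.1) or 3 (0.0892), or eGFP/tdTomato replicate 1 (0.061), 2 (0.0555) or 5 (0.114), and with the share of reads outside genes as a covariate (-0.42, 0.0815).

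Of 16 tissue-specific basic helix-loop-helix factors, which need E protein partners, 14 were tested. In eGFP/tdTomato against tdTomato 1 was higher and 1 lower, where 16.8% of all genes were higher and 12.4% lower. In eGFP against tdTomato 3 were higher and 2 lower, where the shares of all genes were 20.4% and 14.9%. In the first comparison, no gene of the list was higher without eGFP/tdTomato replicate 3 or without the libraries numbered 3. There, 3 were higher without tdTomato replicate 5, and 2 were lower without the libraries numbered 3. Olig2, the gene of the sorted reporter, was lower in eGFP/tdTomato than in tdTomato (-1.79 ± 0.40, edgeR adjusted p = 0.00251), and Olig1 was 5.72-fold lower in eGFP than in tdTomato (-2.52, 0.000245), or -1.83 with the covariate and -3.15 without the libraries numbered 3. Between the eGFP-carrying fractions 2 of the 14 were higher in eGFP/tdTomato, Olig2 (12.8-fold) and Olig1 (3.64-fold, edgeR adjusted p = 0.0253), against 0.814% of all genes. These fractions were separated by the Olig2 reporter, so the Olig2 call follows from the sort. Olig1 is also 1 of the 8 progenitor markers above, of which 3 were higher in eGFP/tdTomato. The adjusted p of Olig1 passed 0.05 on leaving out any of 4 libraries: 0.105 and 0.116 for eGFP replicates 2 and 5, and 0.0881 and 0.0844 for eGFP/tdTomato replicates 3 and 5.

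Genes of the BMP pathway that feeds the ID genes were called in both directions. Of 16 ligands, receptors and SMADs, 7 were higher and 3 lower in eGFP/tdTomato than in tdTomato (median 0.66). In eGFP against tdTomato 8 were higher and 2 lower (median 0.62). Over all genes 16.8% were higher and 12.4% lower in the first comparison, with a median of 0.70. In the second, 20.4% were higher and 14.9% lower, with a median of 0.79. The lower counts are therefore not read as a trait of the pathway. Bmpr1b, a type I BMP receptor, was at 143 ± 45.3 CPM in eGFP, 199 ± 30.6 in eGFP/tdTomato and 1.66 ± 0.444 in tdTomato. Its difference of 6.91 ± 0.31 between eGFP/tdTomato and tdTomato (edgeR adjusted p = 4.17e-10) was in the range of the ID genes, and was 6.32 without the libraries numbered 3. The ligand gene Bmp4 went the other way, at 1.54 ± 0.912, 6.85 ± 1.61 and 222 ± 37.9 CPM, and was 32.4-fold lower in eGFP/tdTomato than in tdTomato (1.63e-08). Bmp6, another ligand gene, was at 21.3 ± 2.03, 6.57 ± 1.84 and 0.283 ± 0.412 CPM.

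Between the eGFP-carrying fractions 1 of the 16 was higher and 1 lower in eGFP/tdTomato, against 0.814% and 1.67% of all genes. They were Bmp4 (2.19 ± 0.33, edgeR adjusted p = 0.00136, and 2.80 without the libraries numbered 1) and Bmp2, also a ligand gene (-2.90 ± 0.46, 0.0024), from 5.86 ± 0.412 to 0.782 ± 0.483 CPM. Bmp4 was highest in tdTomato, and 7 of 10 myelin markers were higher in eGFP/tdTomato than in eGFP. Ependymal, mural and fibroblast, and microglial marker sums were lower in eGFP/tdTomato. The part of these cells in the Bmp4 and Bmp2 values was not tested. The count of higher genes against tdTomato was 4 without the 3 libraries numbered 3 for eGFP/tdTomato, and 5 without eGFP replicate 5 for eGFP.

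Of 13 pathway feedback genes and antagonists, 5 were higher and 3 lower in eGFP/tdTomato than in tdTomato, against 16.8% and 12.4% of all genes. In eGFP against tdTomato 7 were higher and 4 lower, against 20.4% and 14.9% of all genes. Between the eGFP-carrying fractions edgeR, DESeq2 and limma-voom called none (0 with an unadjusted p under 0.05), where edgeR called 2.49% of all genes. Nog, which encodes the secreted BMP antagonist noggin, was at 18.9 ± 10.2 CPM in eGFP, 18.8 ± 4.73 in eGFP/tdTomato and 0.571 ± 0.236 in tdTomato (5.01 ± 0.45 for eGFP/tdTomato against tdTomato, edgeR adjusted p = 3.41e-07). Bambi, a decoy receptor that BMP signalling induces, was at 20.6 ± 5.20, 18.4 ± 5.66 and 2.5 ± 0.297 CPM (2.88 ± 0.27, 7.16e-07). The inhibitory SMAD gene Smad7 was at 4.95 ± 1.03, 5.35 ± 1.05 and 55.8 ± 14.8 CPM, 10.4-fold lower in eGFP/tdTomato than in tdTomato (3.89e-08). Smad6, also an inhibitory SMAD gene, went the other way at low levels, with 2.33 ± 0.967, 2.5 ± 0.597 and 0.156 ± 0.121 CPM. It was 3.96 ± 0.72 higher in eGFP/tdTomato than in tdTomato (edgeR adjusted p = 0.000473). In eGFP against tdTomato the count of higher genes was 4 without tdTomato replicate 3.

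Most factors listed as gliogenic partners of NFI were higher in the same fractions. The list is broad, with Notch effectors and an RNA-binding protein gene, and no joint action with NFI was tested. Of its 16 genes 14 were tested, and 10 were higher and 2 lower in eGFP/tdTomato than in tdTomato (median 2.74). In eGFP against tdTomato 9 were higher and 2 lower (median 1.42). The shares of all genes were 16.8% higher and 12.4% lower in the first comparison and 20.4% and 14.9% in the second. Sox9, the partner of NFIA, was at 782 ± 125 CPM in eGFP, 738 ± 59.3 in eGFP/tdTomato and 13.2 ± 4.55 in tdTomato. Its 55.8-fold difference between eGFP/tdTomato and tdTomato (5.80 ± 0.28, edgeR adjusted p = 7.4e-10) was larger than that of any NFI gene. Atf3, a stress-induced factor, was at 112 ± 27.1, 65.2 ± 20.7 and 1.95 ± 0.845 CPM. Hes1, a Notch effector, was 14.3-fold higher in eGFP/tdTomato than in tdTomato, and Zfp36l1, which encodes an RNA-binding protein, was 13.2-fold higher in eGFP than in tdTomato. Hes5, a second Notch effector, was at 28.7 ± 3.97 CPM in eGFP and 103 ± 18.4 in eGFP/tdTomato and was the 1 gene of this list called between them (1.85 ± 0.37, edgeR adjusted p = 0.0122); the call was lost without eGFP replicate 5 (0.0663) or the libraries numbered 1 (0.105), and DESeq2 and limma-voom each called 4 of the list higher.

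Genes reported as NFIA or SOX9 targets in gliogenesis had the largest median difference of the 7 related lists in both comparisons with tdTomato. Of the 10, 9 were higher and none lower in eGFP/tdTomato than in tdTomato (median 5.28), against 16.8% and 12.4% of all genes. In eGFP against tdTomato 9 were higher and 1, S100b, lower (median 4.67), against 20.4% and 14.9% of all genes. The water channel gene Aqp4 was at 8260 ± 1580 CPM in eGFP, 11245 ± 904 in eGFP/tdTomato and 26.4 ± 5.50 in tdTomato, and the filament gene Gfap at 18042 ± 2537, 13878 ± 2659 and 90.9 ± 14.4 CPM. The glutamate transporter gene Slc1a2 was 106-fold higher in eGFP/tdTomato than in tdTomato, and Slc1a3, also a glutamate transporter gene, was 78.3-fold higher in eGFP than in tdTomato. None of the 10 was called between the eGFP-carrying fractions by edgeR, where 6 had an unadjusted p under 0.05, while DESeq2 called 4 of them higher in eGFP/tdTomato and limma-voom 3. This list shares 6 genes with the astrocyte markers above, among them all those named here, and the cells were sorted on an astrocyte reporter. The rank of the list can therefore not be set apart from the sort, and action of NFIA or SOX9 was not tested. The targets outside the markers were Fabp7 (3.48 in eGFP against tdTomato), Apcdd1 (3.26), Mmd2 (1.81) and Zcchc24 (0.69). Each was called higher in both comparisons with tdTomato, but lay below the list median in both.

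**Figure D5:**
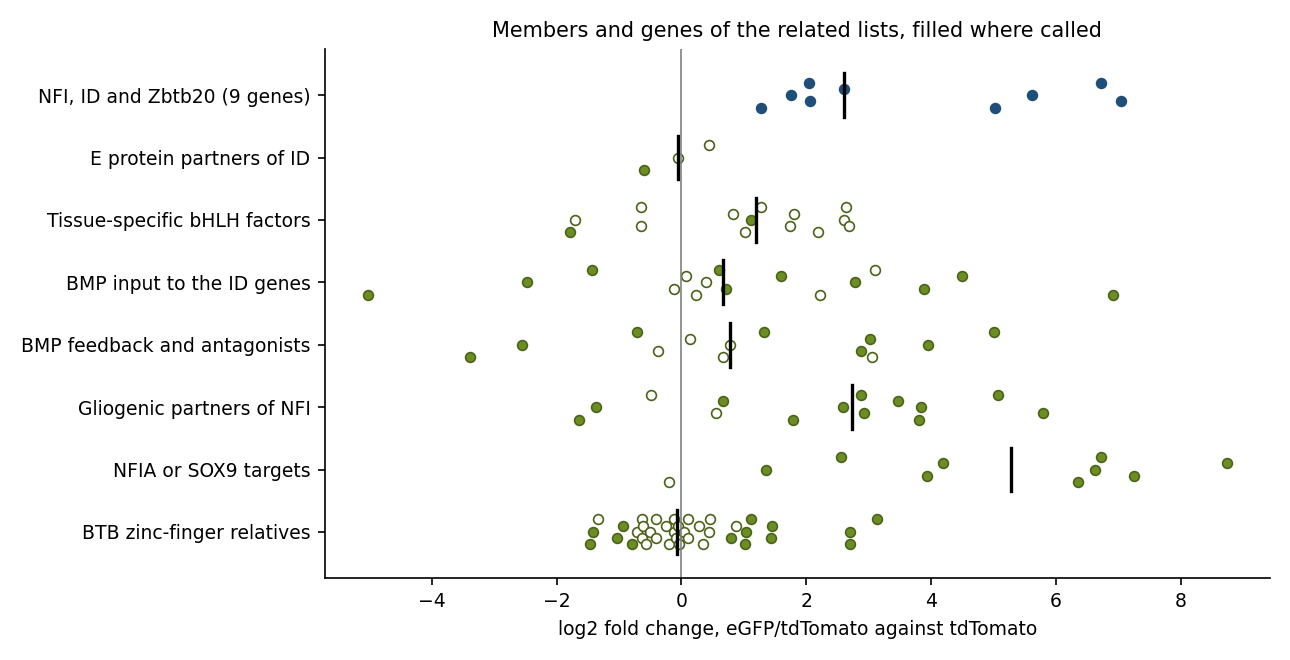
Log2 fold change in eGFP/tdTomato against tdTomato of the 9 genes (blue) and of the genes of 7 related lists (green), filled where the adjusted p was under 0.05; black bars are list medians. The median is 2.60 for the 9 genes, -0.06 for the E proteins, 2.74 for the gliogenic partners, 5.28 for the target genes and -0.06 for the BTB zinc-finger relatives.

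The BTB zinc-finger relatives of Zbtb20 were called in both directions. Of 38 tested genes of the Zbtb series, 9 were higher and 5 lower in eGFP/tdTomato than in tdTomato (median -0.06), and 9 were higher and 5 lower in eGFP than in tdTomato (median 0.05). Over all genes 16.8% were higher and 12.4% lower in the first comparison and 20.4% and 14.9% in the second. Between the eGFP-carrying fractions none of the 38 was called by edgeR (2 with an unadjusted p under 0.05), DESeq2 or limma-voom. Zbtb7c was at 6.04 ± 1.78 CPM in eGFP/tdTomato and 3.14 ± 0.36 higher there on the log2 scale than in tdTomato (edgeR adjusted p = 4.54e-06). Zbtb34 was at 7.00 ± 1.62 CPM in eGFP/tdTomato and 19.3 ± 3.96 in tdTomato (-1.46 ± 0.24, 0.000232), and Zbtb43 was 2.86-fold lower in eGFP than in tdTomato (0.000179). Zbtb16, which encodes the factor PLZF of neural progenitors, was called higher in eGFP/tdTomato (1.45 ± 0.49, edgeR adjusted p = 0.0348), a call lost under many alternatives (0.0928 without eGFP/tdTomato replicate 3, for example). In eGFP/tdTomato against tdTomato, 4 relatives were higher on leaving out eGFP/tdTomato replicate 3; the lower ones numbered 8 on leaving out that library or eGFP replicate 5, and 9 with eGFP replicate 1 left out. In eGFP against tdTomato the lower ones numbered 3 with eGFP replicate 2 or tdTomato replicate 3 left out, 3 with the libraries numbered 1 or those numbered 5 left out, and 8 with the libraries numbered 3 left out.

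Across the 12 libraries, the protein-coding genes whose log2(CPM + 1) followed each member most closely were found among 11333 genes with a mean of at least 5 CPM. The 12 points fall into the 3 fractions and share library depth, so the correlations are descriptions. For Nfia they were Ier2 (Pearson r = 0.994), Pdpn (0.991) and Lrp4 (0.991), for Nfib Stk38l (0.99), Nxt2 (0.987) and H2afv (0.987), for Nfic Cand2 (0.984), Ankrd13d (0.981) and Plekhg5 (0.98), and for Nfix Arhgef26 (0.993), Tmem176a (0.992) and Mmgt2 (0.992). Ier2 is an immediate early gene, at 342 CPM in eGFP, 341 in eGFP/tdTomato and 15.2 in tdTomato.

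Id1 was followed by Igdcc4 (r = 0.996), Pygb (0.996), the brain form of glycogen phosphorylase, and Kcne1l (0.995). Id2 was followed by Sparcl1 (0.998), Gsta4 (0.998) and Slc1a3 (0.997), and Id3 by Clu (0.999), Rdh5 (0.999) and S1pr1 (0.998). Sparcl1, Slc1a3 and Clu are abundant astrocyte transcripts. Id4 was followed by Pgf (0.993), Ccdc80 (0.993) and Vamp8 (0.993), each of them lower in mean in eGFP/tdTomato than in eGFP, and among the genes closest to Zbtb20 were Gprasp2 (0.988) and Efcab2 (0.988). The number of genes with r of at least 0.95 ran from 89 for Nfic (0.786% of 11324) to 1056 for Id3 (9.33%). Nfix had 889 (7.85%), more than Id4 with 735 (6.49%), so many close neighbours were not particular to the ID genes.

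The libraries of 1 fraction also differed together. In eGFP, replicate 3 held the highest level of 6 of the 9 genes and replicate 1 the lowest of 5. In eGFP/tdTomato replicate 3 held the highest of 5, and in tdTomato replicate 5 held the lowest of 8. The share of reads outside genes was lowest in the libraries numbered 3 in each fraction (29.1, 25.6 and 21.2%), and its part in these levels was not tested; with that share as a covariate, the 9 calls against tdTomato were kept in both comparisons.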

How the data were processed

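RNA-seq libraries from 3 sorted fractions, 4 of each, were analysed from the count files that the authors deposited. The deposited values are raw read counts per Ensembl gene, made on GRCm38 with STAR and HTSeq, per the submitters' processing notes; versions, annotation release and strand setting are not given in the sources used here, so reads of a gene and an antisense partner cannot be separated (the largest exon overlap of a member was 4.4% of its exons, Id4). The 5 lines that name no gene were left out of library sizes; their reads outside annotated genes made up 21.2 to 57.1% of a library. Symbols came from GENCODE M21 (53360 of 53465 IDs matched, 99.8%). No libraries were identical.

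Counts were fitted with edgeR 4.0.16 in R 4.3.3 (TMM factors, filterByExpr by fraction, robust quasi-likelihood fit over all 12 libraries, fraction as the term). Calls use a Benjamini-Hochberg adjusted p under 0.05 over 29361 genes. Alternatives were DESeq2 1.42.0, limma 3.58.1 (voom), other factors, filters and gene sets, only the libraries compared, a replicate block, the share of reads outside genes as a covariate, and leaving out each library (12 refits) or each number (4 refits). Levels are TMM-scaled CPM, and per kilobase they are divided by the union of annotated exons. The fit was tested on simulated data. From each list, a comparison names up to 3 called genes, those of largest log2 fold change whose higher mean reached 5 CPM, and a list of 5 or fewer is named whole; results for 2 genes that these rules name are not reported here. A few genes outside these rules are also named. The members, lists and rules were chosen with earlier results of these data known. Promoter windows are from RefSeq (GRCm38.p6). The labels call libraries biological replicates without naming animals, so a p-value reflects only how these libraries vary.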

Additional observations from a re-analysis of the deposited data

Results flagged for a closer look

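Of the 27 sets of 4 libraries examined (9 genes in 3 fractions), 2 held 1 library far from the rest by Dixon's criterion (its gap to the nearest, divided by the range, above the 95% critical value). Nfic in eGFP replicate 3 was at 140.2 CPM, against 62.8 to 73.0 in the other 3 libraries. Id1 in tdTomato replicate 3 was at 2.31 CPM, against 0.996 to 1.20 in the others. Chance flags about 1 in 20 such sets. Both are libraries numbered 3.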

How the results depend on the processing

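The counts of members called (0, 9 and 9 in the 3 comparisons) and the sign of all differences against tdTomato were the same under every alternative run. Between the eGFP-carrying fractions no member was called under any alternative, and signs near 0 turned: Nfic was at 0.04 with limma-voom and from -0.21 to 0.36 with libraries left out, Id1 at -0.002 with the covariate and from -0.15 to 0.51, Nfia from -0.19 to 0.01 and Nfib from -0.06 to 0.30. Over all genes in this comparison, 239 were higher and 491 lower, against 391 higher with upper-quartile factors, 480 with the covariate, 549 higher and 949 lower with DESeq2, and 60 to 475 higher and 201 to 656 lower with libraries left out. In eGFP/tdTomato against tdTomato 3628 genes were lower, and 2609 to 5452 with libraries left out (5452 without eGFP replicate 1); 57.6% of calls were higher there, or 41.4% with protein-coding genes only and 45.8% with at least 1 CPM in 4 libraries.

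With the number as a replicate block, 566 genes were higher in eGFP/tdTomato than in eGFP and Nfic was at 0.05; the member counts did not change, and 45.7% of calls were higher against 32.7% without it. The labels do not say what a number marks, and not every same-numbered pair deviated together: correlations were 0.49 to 0.60 for number 3, 0.15 to 0.30 for number 5 and -0.23 to 0.29 for numbers 1 and 2, and 7 of 12 libraries correlated best with their own number.

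In simulated counts with these libraries, 9.0% of 2-fold changes in randomly drawn genes were recovered between the eGFP-carrying fractions. What limits this, and the rate for the 9 genes, was not tested. Where exon length was the longest transcript, 13 of 27 levels per kilobase moved by more than their SD.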
